A study of Danio rerio with 12 samples.

Results

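Gene expression was compared in the white skeletal muscle of wild-type zebrafish that had been exercised for 4 weeks and of wild-type zebrafish that had not. A gene entered the comparison when 3 or more of the 6 wild-type libraries held 10 or more of its counts, and 14597 of the 31962 genes listed did. The fish were 3 months old and had been housed for 2 weeks at 28 °C under 16 h of light and 8 h of dark. Exercised fish swam against a flow of 0.4 m/s, the optimal swimming speed, 6 h a day, 5 days a week. Non-exercised fish stayed at a flow of 0.1 m/s, at which they could move freely. The swim tunnel differed between exercised and non-exercised fish, so tunnel and exercise cannot be told apart. RNA came from the epaxial white muscle above the lateral line, with 3 libraries per group, and the sources used here do not say at what hour the fish were sampled. The same design was run in Gr mutants, in which nr3c1, the gene of the glucocorticoid receptor, has a point mutation where the receptor binds DNA, again with 3 libraries per group. The mutants are used below only to ask how the wild-type response compared with theirs. The study asked whether cortisol signalling through the glucocorticoid receptor underlies the growth that exercise enhances. It measured cortisol levels and body size, and its RNA sequencing asked which transcript changes under exercise depend on the receptor.

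White muscle is the fast, glycolytic tissue that makes up most of a fish's trunk. Its fibres grow mainly by adding myofibrils, a process that calls on ribosomes for protein synthesis, on ubiquitin ligases and proteasomes for turnover, and on a collagen-rich connective tissue that carries the force to the skin and tail. Muscle also holds a circadian clock of its own. In that clock the Clock and Bmal proteins switch on the period and cryptochrome genes, whose products shut Clock and Bmal off again. A second loop runs through the nuclear receptors REV-ERB and ROR, which repress and activate the Bmal genes, and the rhythm is passed on to other genes by the PAR bZIP factors Dbp, Tef and Hlf and by their competitor Nfil3.

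The wild-type libraries held between 11076993 and 13807501 counts on genes. The 10 genes with the highest counts took 31.1% to 39.6% of each library. On the first principal component (31.9% of the variance) the non-exercised libraries lay between -44.6 and -26.3 and the exercised ones between 13.0 and 49.5. Fast fibre markers, which define the tissue, summed to 253200 to 410100 CPM (counts per 1000000 counts of scaled library size) in non-exercised and 243300 to 389500 CPM in exercised libraries. None of the 29 tested passed the test. The groups did not overlap in 2 that were higher and 2 that were lower, beside 10.5% and 9.98% of all genes. The lower ones were the abundant creatine kinase genes ckma and ckmb, with log2 fold changes of -0.96 and -0.95. The higher ones were the troponin genes tnni2a.4 (0.86) and tnni2b.2 (0.80). Slow fibre markers summed to 1140 to 4725 CPM and 1250 to 7198 CPM, with exercised replicate 1 highest. Haemoglobin and other erythrocyte markers stood at 3384 CPM in exercised replicate 2 and at 236 to 672 CPM in the other libraries. Oocyte markers stood at 32.8 CPM in non-exercised replicate 2 and at 4.82 to 10.6 CPM elsewhere, with 1 of 18 passing the count filter. That gene, rbpms2b, had 3.045, 3.24 and 2.42 CPM in non-exercised and 6.47, 4.23 and 8.34 CPM in exercised fish. It made up most of each exercised sum. Of the zp2 and zp3 egg envelope genes listed, all but zp3c lay higher in every non-exercised library, at few counts. For zp2.3 the values were 0.435, 5.11 and 1.21 CPM against 0.073, 0 and 0 CPM. The part of ovarian tissue in these values was not tested. Macrophage, lymphocyte, endothelial, adipocyte, nerve and satellite cell markers overlapped between the groups in their sums, and 0 of their members passed the test. Epidermis markers summed to 947 to 1188 CPM in non-exercised and 757 to 1508 CPM in exercised libraries, with exercised replicate 1 highest. Of the 18 tested, 0 passed. The keratin gene krt5 had 183, 158 and 292 CPM against 326, 11.7 and 28.6 CPM. The part of skin in the matrix values below was not tested.

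Few genes passed adjustment at 3 libraries per group, and those that did differed strongly between exercised and non-exercised fish. Of the 14597 genes, 54 passed an adjusted p of 0.05 (0.37%), and of these 33 rose (0.226%) and 21 fell (0.144%). The 33 genes that rose had log2 fold changes of 1.19 to 7.15 (median 1.74) and the 21 that fell had -8.22 to -1.25 (median -2.39). In each of the 54 genes the 3 exercised libraries lay wholly above or wholly below the 3 non-exercised ones, a separation found in 20.5% of all genes tested. The genes were called from these same libraries, so their separation follows largely from the call and is no further support for it. Over all genes the median log2 fold change was 0.03. At an unadjusted p under 0.05, 1068 genes were higher (7.32%) and 960 lower (6.58%). DESeq2 called 395 genes (2.71%), with 211 higher (1.45%) and 184 lower (1.26%), and these included 53 of the 54 genes, the other being ogfrl1, to which it gave no adjusted p. The biological coefficient of variation was 0.308. Leaving out 1 library at a time left between 7 and 32 genes past the threshold, the fewest without exercised replicate 3. Of the 54 genes, 5 passed in all 6 such fits, namely rorcb, nr1d1, cry3, mettl11b and si:dkey-184p9.7, and 27 passed in 0 of them. Each of the 54 kept its sign in every such fit in which it was tested. With groups that do not overlap the sign could hardly change, so this adds no support to the calls. The genes C1GALT1 (1 of 2), arntl1a, nfil3-2, cyp4v7 and ogfrl1 were tested in 3 of the 6 fits. These 5 passed the count filter only through the 3 libraries of the group in which they were high. Without any of those libraries they were no longer tested, so their entry depended on the difference itself.

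**Figure D1:**
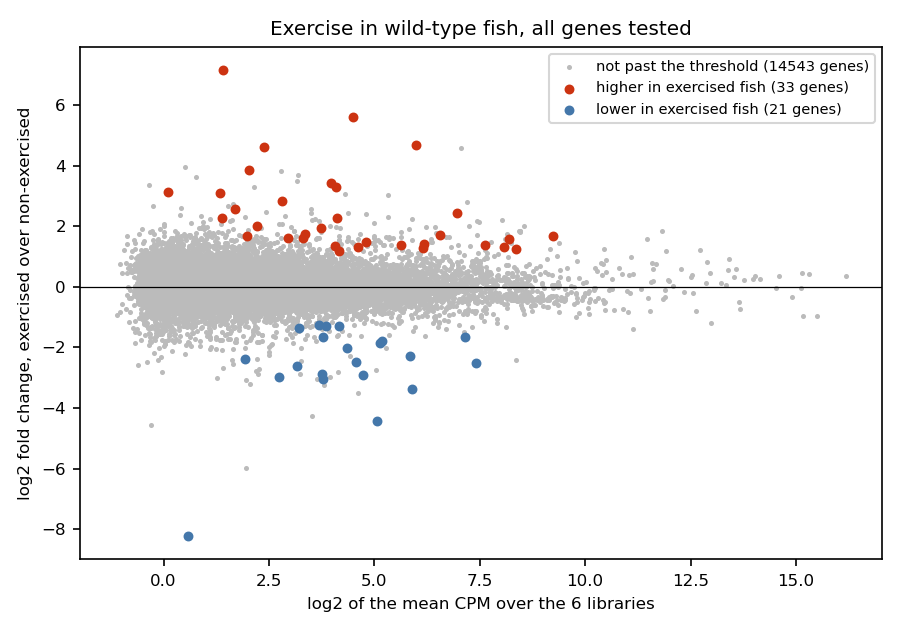
Log2 fold change of exercised over non-exercised wild-type fish (vertical axis) against the log2 of the mean CPM over the 6 libraries (horizontal axis), 1 point per gene. The 33 genes that rose (red) and the 21 that fell (blue) past an adjusted p of 0.05 stand out from a cloud centred at 0.03, and genes with high counts lie closer to 0 than genes with low counts.

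Circadian clock genes changed together in number, with the ROR gene rorcb higher and the REV-ERB gene nr1d1, the period genes per1a and per1b and the PAR bZIP genes dbpa, hlfa and tefa lower in exercised fish. Of 46 tested genes of the 5 clock lists, 4 rose and 9 fell, and the groups did not overlap in 9 genes that were higher and 15 that were lower, beside 10.5% and 9.98% of all genes tested. The nuclear receptor rorcb (ENSDARG00000017780), a ROR receptor, had 0.783, 1.15 and 0.787 CPM in the non-exercised libraries and 50.9, 34.4 and 47.5 CPM in the exercised ones. Every exercised library thus stood far above every non-exercised one, and the means differed 48.8-fold (log2 fold change 5.62, SE 0.28, adjusted p = 0.000631). Its counterpart nr1d1 (ENSDARG00000033160), which encodes the repressor REV-ERB alpha, moved the other way, from 79.0, 55.5 and 55.7 CPM to 2.33, 3.05 and 3.40 CPM. That is a 21.7-fold lower mean (log2 fold change -4.44, SE 0.26, adjusted p = 0.00116). The other ROR gene with separate groups, roraa, had 11.8, 14.1 and 3.94 CPM in non-exercised and 29.8, 31.7 and 32.1 CPM in exercised fish, and did not pass (adjusted p = 0.144).

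Among the activators, arntl1a, 1 of the 2 zebrafish Bmal1 genes in the list, rose from 0.522, 0.626 and 0.424 CPM to 4.66, 5.31 and 3.63 CPM (log2 fold change 3.11, SE 0.32, adjusted p = 0.0133). Its mean of 31 counts lies under the minimum of 50 used for naming genes, and it is named here because a clock list holds it. It passed the count filter only through the exercised libraries. The other activators, arntl1b, clocka, clockb and npas2, had log2 fold changes of 0.28 to 1.37 and did not pass.

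Of the 12 period and cryptochrome genes, 4 fell and 1 rose, and the groups stood apart in 6 that were lower and 2 that were higher. The period gene per1a had 28, 22.8 and 23.2 CPM in non-exercised fish and 4.51, 2.95 and 1.54 CPM in exercised fish (log2 fold change -3.03, SE 0.36, adjusted p = 0.0217). Its paralogue per1b fell from 118, 82.8 and 86.1 CPM to 16.9, 20.6 and 22.1 CPM (log2 fold change -2.27, SE 0.22, adjusted p = 0.0133). Both genes fell in every exercised library, by 8.22-fold and 4.82-fold on the means, whereas per2 at a log2 fold change of -1.32 and per3 at -0.81 had overlapping groups. Of the cryptochromes, cry3 fell 5.53-fold (43.4, 40 and 37.3 CPM against 5.46, 7.87 and 8.49 CPM, adjusted p = 0.00888). The photolyase gene cry5, with a mean of 46 counts, fell 5.36-fold (adjusted p = 0.0367). By contrast, cry2a rose 2.69-fold, from 34.5, 43.9 and 38.9 CPM to 101, 114 and 101 CPM (adjusted p = 0.0283), so that members of 1 family changed in opposite directions. The Clock and Bmal repressor ciarta fell from 31.5, 15.3 and 24.7 CPM to 3.27, 2.95 and 3.40 CPM (log2 fold change -2.89, SE 0.29, adjusted p = 0.0133), and its paralogue ciartb had -1.81 without passing (adjusted p = 0.0734). The gene of the CLOCK-interacting protein cipcb, which is in none of the lists, fell from 59.1, 51.2 and 58.2 CPM to 14.3, 18 and 16.8 CPM (adjusted p = 0.0133).

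Of the 9 output factors tested, 3 fell and 1 rose. The PAR bZIP activators dbpa, hlfa and tefa fell 8.06-fold, 3.64-fold and 3.15-fold. In dbpa the values were 13.0, 12.7 and 10.1 CPM in non-exercised and 1.89, 1.08 and 1.47 CPM in exercised fish (adjusted p = 0.00888). The most abundant of the 3, tefa, had 277, 197 and 175 CPM against 64.0, 63.1 and 79.0 CPM (adjusted p = 0.0367). Nfil3 genes encode a repressor that binds the same sites. Of these, nfil3-2 rose 24.7-fold, from 0.609, 0.313 and 0.303 CPM to 16.6, 7.97 and 5.71 CPM (adjusted p = 0.0212). Exercised replicate 1 stood well above the other exercised libraries, and nfil3-2 passed the count filter only through that group. The paralogue nfil3-5 was at 3.31, 9.39 and 13.5 CPM in non-exercised and at 101, 90.8 and 22.7 CPM in exercised fish, a log2 fold change of 3.02 (SE 0.66) that did not pass (adjusted p = 0.119), and nfil3-6 had -0.995 (adjusted p = 0.311). The casein kinase and bhlhe genes, which modify or repress the loop, had log2 fold changes of -0.72 to 0.11, and 0 of them passed. The hour of sampling of each fish is not given in the sources used here, and its part in these values was not tested.

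**Figure D2:**
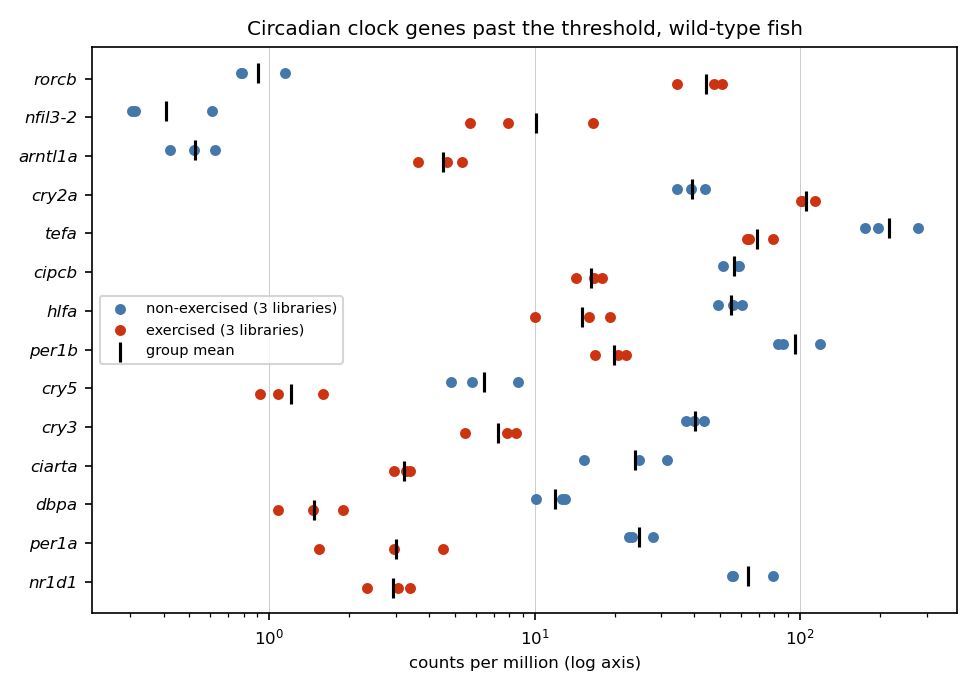
CPM on a log axis (horizontal) of the 13 clock genes past the threshold and of cipcb, in the 3 non-exercised (blue) and the 3 exercised (red) wild-type libraries, with a bar at each group mean. The groups stand apart in all 14 genes, which are shown because they passed. Arntl1a and nfil3-2 passed the count filter only through the exercised libraries. Rorcb, nfil3-2, arntl1a and cry2a are higher and the other 10 lower in exercised fish.

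Many genes of the extracellular matrix were higher in exercised fish. Of 116 tested genes of the 4 matrix lists, 6 rose and 0 fell, and the groups stood apart in 53 genes that were higher and in 1 that was lower, beside 10.5% and 9.98% of all genes. The median log2 fold change was 0.53. These lists were written with earlier results of these libraries known, and in whole tissue a change in the number of cells of a type and a change in RNA per cell cannot be told apart.

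The fibrillar collagens, which form the tensile fibres of tendon and myosepta, had the highest median of the matrix lists, 1.22 over 12 genes, with 3 past the threshold and 8 apart. The minor fibrillar collagen gene col11a1b had 37.7, 48.3 and 45.5 CPM in non-exercised fish and 151, 130 and 152 CPM in exercised fish (log2 fold change 1.72, SE 0.19, adjusted p = 0.0202). For col1a2, a chain of collagen I, the values were 211, 322 and 326 CPM against 975, 771 and 1022 CPM (log2 fold change 1.69, SE 0.25, adjusted p = 0.0459). Col5a1, whose product starts collagen I fibrils, rose 2.59-fold (adjusted p = 0.0367). The other chains of collagen I, col1a1a and col1a1b, had log2 fold changes of 1.71 and 1.46 with separate groups and adjusted p-values of 0.0587 and 0.072. Together the 3 collagen I genes took 0.0718% to 0.126% of all counts in non-exercised and 0.194% to 0.345% in exercised libraries. Of the cartilage collagen genes, col2a1a had a log2 fold change of 0.00, col11a1a of -0.45, col2a1b of 1.06 and col11a2 of 2.11, the highest of the list. For col11a2 the values were 0.783, 0.417 and 0.545 CPM against 2.84, 1.48 and 3.32 CPM, with separate groups at few counts (adjusted p = 0.1).

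Among the other collagens col12a1b, which decorates the surface of fibrils, rose from 12.9, 15.0 and 14.3 CPM to 39.4, 32.2 and 33.8 CPM (adjusted p = 0.0304). The collagen VI genes col6a1 and col6a2, which surround each muscle fibre, had log2 fold changes of 1.34 and 1.31 with separate groups (adjusted p = 0.0734 for both). Col10a1b had 10.5, 14.7 and 31.4 CPM against 39.5, 1.57 and 4.17 CPM, so that exercised libraries were both its highest and its lowest.

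Of 38 glycoproteins and proteoglycans, 2 rose, 0 fell and 21 were higher with groups apart, beside 10.5% of all genes. Periostin, the product of postnb and a collagen-binding matricellular protein, had 132, 169 and 144 CPM in non-exercised and 440, 421 and 454 CPM in exercised fish (log2 fold change 1.56, SE 0.19, adjusted p = 0.0248). Sparc, a collagen chaperone outside the cell, rose from 174, 210 and 197 CPM to 479, 454 and 450 CPM (adjusted p = 0.0445). The small leucine-rich proteoglycan genes prelp, omd, lum and aspn had log2 fold changes of 1.22, 1.54, 1.26 and 1.65 with separate groups and did not pass. The crosslinking and remodelling enzymes had a median of 0.40, with 0 of 46 past the threshold. Of these, the collagenase gene mmp2 had 66.5, 84.1 and 89.1 CPM against 200, 141 and 189 CPM (adjusted p = 0.087), and lox, whose enzyme crosslinks collagen, had 4.09, 4.38 and 5.81 CPM against 14.8, 18.5 and 6.64 CPM (adjusted p = 0.152).

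Markers of fibroblasts and tendon cells, several of them matrix genes, summed to 1349 to 1598 CPM in non-exercised and 2706 to 3632 CPM in exercised fish, with col1a2, col5a1 and postnb of the 14 tested past the threshold. The tendon membrane protein gene tnmd had 8.27, 10.3 and 6.05 CPM against 16.5, 15.6 and 17.4 CPM (log2 fold change 1.01, adjusted p = 0.119). Thbs4b, for a thrombospondin of tendon, had 43.8, 27.5 and 10.1 CPM against 36.9, 17.3 and 28.8 CPM, with overlapping groups. Of the 6 tested members outside the matrix lists, 3 had positive and 3 negative log2 fold changes. These were 0.69 for scxa, the tendon transcription factor, 0.53 for fap and 0.05 for tcf15. The negative ones were -0.40 for egr1, -0.36 for pdgfra, a PDGF receptor gene, and -0.29 for xirp2a. Of these, egr1 and xirp2a are not particular to fibroblasts or tendon cells, and xirp2a had 313.7 to 465.7 CPM over the libraries. The balance of signs is therefore no measure of such cells. The groups overlapped in all 6 such members tested, and mkxa was under the count filter. The part of cell number in the matrix values was not tested.

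Genes that build ribosomes were lower in exercised fish, nearly without exception in sign. In the list of 60 ribosome biogenesis genes, which covers RNA polymerase I and the nucleolar factors that process ribosomal RNA, 1 gene fell and 0 rose past the threshold. The groups stood apart in 44 genes, all lower, which is 73.3% of the list beside 9.98% of all genes. The median log2 fold change was -0.88, and 58 of the 60 genes were negative. DESeq2 called 12 of them lower and 0 higher.

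The gene past the threshold was polr1a, which encodes the largest subunit of RNA polymerase I, with 23.1, 25.4 and 27.5 CPM in non-exercised and 9.09, 10.3 and 11.8 CPM in exercised fish (log2 fold change -1.28, SE 0.18, adjusted p = 0.0367). All 5 polymerase I subunits of the list were negative, from -1.65 in polr1d to -0.98 in polr1c. Heatr1, a small-subunit processome factor, had 14.4, 16.6 and 16.7 CPM against 6.18, 4.82 and 7.95 CPM (log2 fold change -1.33, adjusted p = 0.0727). The nucleolar helicase gene ddx21 had 155, 153 and 140 CPM against 48.5, 75 and 47.9 CPM (log2 fold change -1.39, adjusted p = 0.072). In both genes every exercised library lay well below every non-exercised one, though neither passed. Fibrillarin (fbl) had a log2 fold change of -1.18, nucleolin (ncl) -0.62 and nucleophosmin (npm1a) -0.90, each with separate groups. Outside the list, pdcd11, which also processes ribosomal RNA, fell 2.38-fold and the RNA helicase gene ddx24 fell 3.17-fold (adjusted p = 0.0367 for both).

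Further down the same route the differences were smaller. The 79 ribosomal protein genes had a median of -0.38 with 75 negative and 0 past the threshold. In 10 of them the exercised libraries lay below the others, a share near the 9.98% of all genes. Their share of all counts, without scaling of library size, was 3.42% to 4.49% in non-exercised and 2.77% to 3.09% in exercised fish. With scaling the groups overlapped. The median of their log2 CPM, relative to each gene's mean, was -0.049 in non-exercised replicate 1 and 0.096 in exercised replicate 2. The acidic stalk protein gene rplp0 had 2214, 2899 and 1995 CPM against 1106, 1815 and 1359 CPM (adjusted p = 0.288). Translation factors and tRNA synthetases had a median of -0.32, and in 34 of 89 genes the exercised libraries lay below the others, beside 9.98% of all genes; the initiation factor 3 subunits eif3d and eif3i had -0.79 and -0.86, and neither passed.

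Transcripts of oxidative metabolism were for the most part modestly higher in exercised wild-type fish, while few passed the test. The 13 protein-coding genes of the mitochondrial genome were all positive (median 0.61, range 0.46 to 1.03), and in 12 of them the groups did not overlap, beside 10.5% of all genes in that direction. They took 6.66% to 7.99% of all counts in non-exercised and 9.66% to 12.8% in exercised libraries. Mt-co2, a core subunit of cytochrome c oxidase, had 7879, 9181 and 5857 CPM against 14730, 14580 and 13660 CPM (log2 fold change 0.91, SE 0.26, adjusted p = 0.187). The exercised libraries lay close together and above the others, while the non-exercised ones spread widely, and 0 of the 13 genes passed.

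Nuclear genes of the respiratory chain were mostly higher too. Of 82 genes, 72 were positive, the median was 0.35 and the groups stood apart in 44 that were higher and 2 that were lower, beside 10.5% and 9.98% of all genes, with 0 past the threshold. By complex, the medians were 0.43 for complex I (35 genes), 0.29 for complex III (8 genes), 0.40 for complex IV (18 genes) and 0.25 for the ATP synthase (16 genes). Complex II had no common direction, with a median of 0.15 over 4 genes, 2 of them positive and 2 negative. Ndufs6 of complex I had 37.8, 45.5 and 39.7 CPM against 74.0, 70.1 and 60.8 CPM, and uqcrh of complex III had 92.2, 92.0 and 104 CPM against 172, 162 and 143 CPM (adjusted p = 0.136 and 0.144). Slow fibres are rich in mitochondria, and the slow fibre genes had a median of -0.03 with 0 of 20 apart. That median ranged from -1.19 without exercised replicate 1 to 0.24 without exercised replicate 2, so its sign turned with single libraries. Within the exercised group, replicate 1 was highest both in slow fibre markers and in the mitochondrial share, while in non-exercised fish replicate 3 was lowest in both; the part of slow fibres in these values was not tested.

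In the fuel pathways, 16 of 41 genes of fatty acid oxidation were higher with groups apart, beside 10.5% of all genes, with a median of 0.34 and 0 past the threshold. Acad9, an acyl-CoA dehydrogenase that also helps to assemble complex I, had 9.74, 10.8 and 12.4 CPM against 27.9, 24.2 and 22.4 CPM and came just short of it (log2 fold change 1.18, adjusted p = 0.053). The aspartate aminotransferase gene got1, part of the shuttle that carries reducing equivalents into mitochondria, rose from 139, 174 and 148 CPM to 392, 403 and 361 CPM (log2 fold change 1.33, SE 0.19, adjusted p = 0.0367). Idh3b of the tricarboxylic acid cycle had 0.94 (adjusted p = 0.0798). Glycolysis and glycogen genes had a median of 0.11, with 0 of 62 past the threshold; tpi1b, a triosephosphate isomerase, was highest at 1.25 among those named (adjusted p = 0.103). The regulators of mitochondrial biogenesis showed no common direction, with a median of 0.05 over 20 genes. The coactivator gene ppargc1a itself had 5.57, 10.7 and 53.8 CPM in non-exercised and 25.5, 12.1 and 7.57 CPM in exercised fish, so the groups overlapped widely, and its log2 fold change of -0.64 became 0.91 without non-exercised replicate 3.

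**Figure D3:**
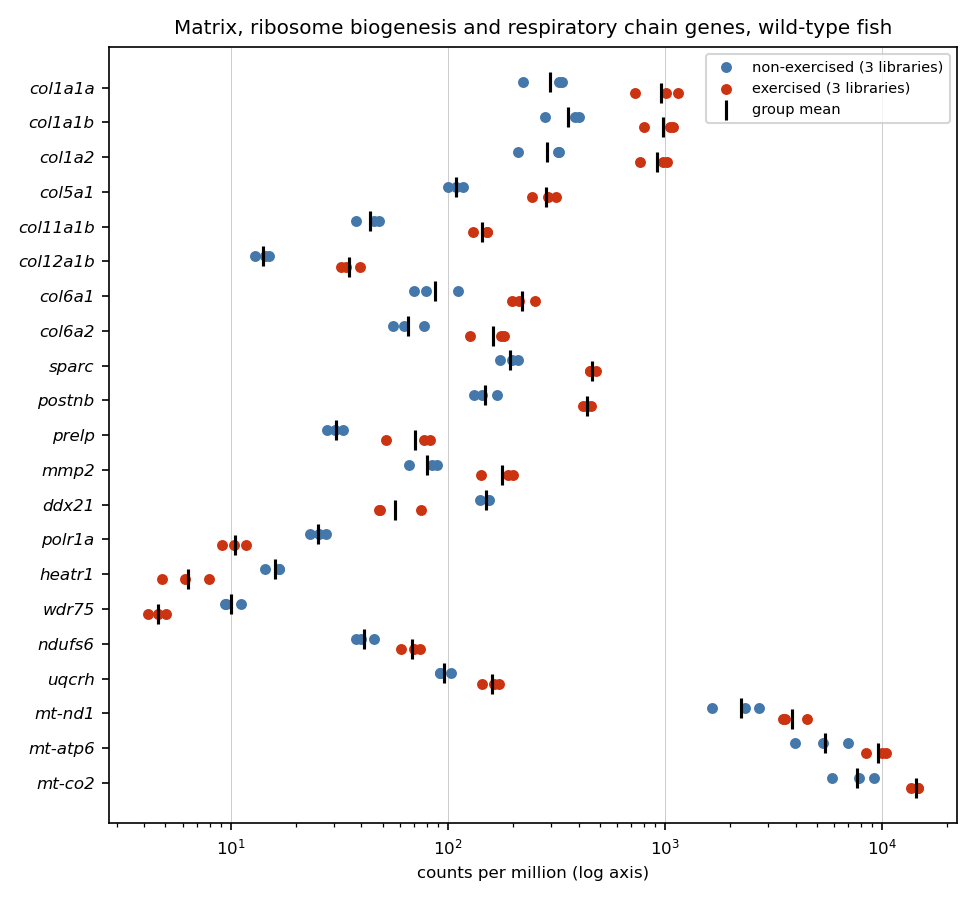
CPM on a log axis (horizontal) of 12 matrix genes (col1a1a to mmp2), 4 ribosome biogenesis genes (ddx21 to wdr75) and 5 respiratory chain genes (ndufs6 to mt-co2) in the 3 non-exercised (blue) and the 3 exercised (red) wild-type libraries, with a bar at each group mean. The matrix and respiratory chain genes lie to the right in exercised fish and the ribosome biogenesis genes to the left, with no overlap in these 21 genes. Of these, col1a2, col5a1, col11a1b, col12a1b, sparc, postnb and polr1a passed the threshold. The 21 were picked from the named genes, and their lack of overlap does not hold for the full lists. There the groups were apart and higher in 53 of 116 matrix and 44 of 82 nuclear respiratory chain genes, and apart and lower in 44 of 60 ribosome biogenesis genes.

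Several enzymes of nitrogen and one-carbon metabolism changed. The gene of S-adenosylmethionine decarboxylase, amd1, which commits methionine to polyamines, fell from 293, 332 and 240 CPM to 54.3, 36.7 and 60.1 CPM (log2 fold change -2.52, SE 0.26, adjusted p = 0.0133). Ampd3b, one of the AMP deaminase genes, rose from 57.0, 26.3 and 32.6 CPM to 194, 227 and 210 CPM (log2 fold change 2.44, SE 0.31, adjusted p = 0.0282). Slc25a32a, a mitochondrial folate carrier, rose 10.8-fold, from 4.0, 2.3 and 1.7 CPM to 28.6, 18 and 39.4 CPM (adjusted p = 0.0218).

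The other serine, glycine and one-carbon genes leaned down. The list had a median of -0.66, and in 10 of 29 genes the exercised libraries lay below the non-exercised ones, beside 9.98% of all genes. The methionine adenosyltransferase gene mat2ab had 31.7, 28.8 and 45.8 CPM against 15.8, 2.85 and 3.09 CPM, and the cystathionine synthase gene cbsb 22.8, 18.1 and 13.3 CPM against 9.60, 2.46 and 4.86 CPM (adjusted p = 0.174 and 0.169). Gamt, the last enzyme of creatine synthesis, had 249, 332 and 220 CPM against 115, 145 and 108 CPM (adjusted p = 0.104). Bckdk, the kinase that switches off breakdown of branched-chain amino acids, rose 2.41-fold, from 37.6, 45.6 and 42.3 CPM to 108, 102 and 91.5 CPM (adjusted p = 0.0367).

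Genes of protein breakdown did not move as 1 group. Of 50 FoxO and muscle ubiquitin ligase genes, asb15b rose and 0 fell, and 12 were higher and 4 lower with groups apart, beside 10.5% and 9.98% of all genes, so that the share of lower genes was under that of all genes. Asb15b, a substrate receptor of muscle ubiquitin ligases, had 0.870, 0.104 and 0.545 CPM in non-exercised and 8.66, 6.39 and 7.87 CPM in exercised fish (log2 fold change 3.84, SE 0.46, adjusted p = 0.0241). Its paralogue asb15a had 1.47 (adjusted p = 0.0602). The atrophy ligase genes fbxo32 and trim63b stood at 80.7, 11.0 and 94.1 CPM against 171, 306 and 371 CPM, and at 90.9, 121 and 148 CPM against 192, 419 and 222 CPM. The exercised fish were higher in every library of both genes, yet the spread within groups was wide and neither passed (adjusted p = 0.22 and 0.178). Proteasome subunits had a median of -0.42 with 45 of 53 negative, but in 2 genes alone were the groups apart and lower, beside 9.98% of all genes. Of the autophagy genes, ulk1a had 51.0, 13.3 and 26.6 CPM against 83.6, 149 and 127 CPM (adjusted p = 0.132).

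Chaperones included a set of low values in exercised fish. In 23 of 85 genes the exercised libraries lay below the others and in 2 above, beside 9.98% and 10.5% of all genes, with a median of -0.18 and 0 past the threshold. Of the 7 subunits of the cytosolic chaperonin, which folds actin and tubulin, all were negative and 6 had separate groups. Cct5 had 132, 167 and 141 CPM against 60.5, 78.1 and 64.4 CPM (log2 fold change -1.12, adjusted p = 0.0734). The 4 inducible Hsp70 genes had log2 fold changes of -3.51 to -2.82. For hsp70l the values were 12.4, 41.8 and 80 CPM in non-exercised and 5.6, 3.25 and 2.86 CPM in exercised fish (adjusted p = 0.0798). Non-exercised replicate 3 was the highest library and replicate 1 the lowest of its group in all 4, and since these copies are nearly identical, reads of one may have been counted on another.

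Of the contractile genes, 0 passed the test in wild-type fish. Medians were 0.33 for 13 myosin heavy chains, 0.09 for 38 light chains, actins, troponins and tropomyosins, 0.02 for 36 Z disc and titin genes and -0.03 for 38 genes of calcium release and reuptake. With 1 library left out these medians ranged from 0.13 to 0.48, -0.13 to 0.34, -0.08 to 0.21 and -0.11 to 0.09, so that the sign of the last 3 turned with single libraries. The light chain median was lowest without exercised replicate 1 and also negative without non-exercised replicate 3, the Z disc median was negative without non-exercised replicate 1 or 3, and the calcium median was positive without non-exercised replicate 2 or exercised replicate 2 or 3. The fast myosin gene myhz1.2 had 7360, 7817 and 4960 CPM against 6871, 11900 and 8866 CPM, and the tropomyosin gene tpma 12520, 19420 and 11950 CPM against 14820, 24840 and 16330 CPM. The groups overlapped in both. Fast myosin copies share most of their sequence, so the values of single copies are uncertain. The oxygen store myoglobin (mb) had 93.0, 84.8 and 64.9 CPM against 496, 92.2 and 209 CPM, with exercised replicate 1, the library highest in slow fibre markers, standing far above the rest (log2 fold change 1.72, adjusted p = 0.217). In the neuromuscular and channel list 0 of 47 passed, but the potassium channel gene knca7 outside it rose from 16.4, 14.6 and 13.4 CPM to 35.4, 48.6 and 39.8 CPM (adjusted p = 0.0304).

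Regulators of growth and energy sensing that are often measured in exercised muscle did not pass. Mtor had 17.1, 17.7 and 17.8 CPM in non-exercised and 18.5, 19.1 and 21.1 CPM in exercised fish (log2 fold change 0.16, SE 0.16, adjusted p = 0.693). The satellite cell gene pax7a was at 0.42 (SE 0.46) and pax7b at 0.04 (SE 0.39), and the mef2 genes lay between -0.38 and 0.81. The 9 tested AMPK subunit genes named by the rule ranged from -0.86 in prkag2a to 0.88 in prkaa2. In the same list, tsc1b, a brake on mTOR signalling, had 129, 124 and 135 CPM against 47.1, 58.4 and 66.2 CPM (log2 fold change -1.18, adjusted p = 0.072). Eif4ebp3l, whose product holds back translation, had -1.13 (adjusted p = 0.11). Myod1, the myogenic factor, had -0.58 (adjusted p = 0.292). The growth hormone receptor gene ghrb had 200, 60.7 and 70.9 CPM against 45.8, 17.5 and 43.1 CPM, and cish, a feedback inhibitor of that receptor, 20.4, 7.83 and 7.51 CPM against 3.13, 3.64 and 5.48 CPM. Both were lower in every exercised library without passing (adjusted p = 0.232 and 0.182). The cell cycle list had a median of -0.27, which was 0.03 without non-exercised replicate 1, with pcna at -0.74 (adjusted p = 0.144).

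The glucocorticoid receptor gene nr3c1 itself had 39.0, 41.2 and 27.9 CPM in non-exercised and 47.2, 60.5 and 52.0 CPM in exercised wild-type fish (log2 fold change 0.56, SE 0.21, adjusted p = 0.291). In the list of receptor and glucocorticoid-responsive genes, 1 of 30 rose and 2 fell, and these were the clock genes cry2a, per1a and per1b already described. Among the targets best known in vertebrates, chosen here after their values were seen, fkbp5 had 84.8, 454 and 578 CPM against 497, 768 and 36.4 CPM. Klf9 had 26.6, 41.5 and 34.8 CPM against 57.5, 63.8 and 4.17 CPM. In both, exercised replicate 3 was the lowest of the 6 libraries and the other 2 exercised libraries were above or within the non-exercised range. Tsc22d3 had 116, 104 and 140 CPM against 236, 267 and 146 CPM (adjusted p = 0.217).

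The remaining genes past the threshold fall in no common pathway of the lists. Si:dkey-184p9.7, which the annotation does not name further, rose from 5.13, 3.13 and 5.81 CPM to 89.0, 104 and 176 CPM (log2 fold change 4.70, SE 0.38, adjusted p = 0.00639), and mettl11b, named as a methyltransferase, from 2.87, 3.13 and 3.33 CPM to 21.5, 38.2 and 32.8 CPM (adjusted p = 0.00639). Some have products outside the cell: fndc1 (log2 fold change 1.38), PAMR1 (2 of 2) (1.74), CLEC3B (2 of 2), the tetranectin gene (1.62), C9H2orf40 (1 of 2) (1.60), and bglapl, related to osteocalcin (2.83). Phex, a membrane endopeptidase known from bone, had 1.35. The other genes that rose and met the minimum of 50 counts were frmd6 (1.96), znf385b (2.02), KLHL34 (2.27) and the RNA-binding protein gene hdlbpb (1.19). The others that fell were si:ch211-132b12.7 (-3.37), si:dkey-18a10.3 (-2.90), the SNARE gene snap23.2 (-2.62), fam102ba (-2.03), the Notch ligand gene jag1a (-1.36) and si:dkey-177p2.6 (-1.30).

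A further 8 of the 54 genes had a mean under 50 counts, among them arntl1a and cry5. Tmem229b, nupr1, heca and ogfrl1 rose with log2 fold changes of 1.67 to 3.13. C1GALT1 (1 of 2), for a glycosyltransferase, had 0, 0.104 and 0 CPM in non-exercised and 3.35, 6.69 and 5.79 CPM in exercised fish, which against 3 counts in each library is at least 20.9-fold higher. The cytochrome gene cyp4v7 had 3.92, 2.40 and 2.66 CPM and then 0 counts in all 3 exercised libraries, which is at least 12.1-fold lower by the same measure.

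Immune genes and sterol synthesis varied between single fish. The antigen presentation and cytokine lists had medians of 0.15 and 0.26, with 0 of 48 and 0 of 64 genes past the threshold. Mhc1uba had 5.13, 1.77 and 24.2 CPM against 275, 190 and 294 CPM (log2 fold change 4.59, adjusted p = 0.0821). It belongs to a multigene family whose copies differ between fish, so its value is uncertain. Fatty acid and sterol synthesis had a median of -0.30 with all libraries, and it was 0.16 without non-exercised replicate 3. In that library cyp51 was at 23.7 CPM and hmgcra at 23.4 CPM, both enzymes of sterol synthesis, while the other 5 libraries held at most 5.75 CPM of each.

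**Figure D4:**
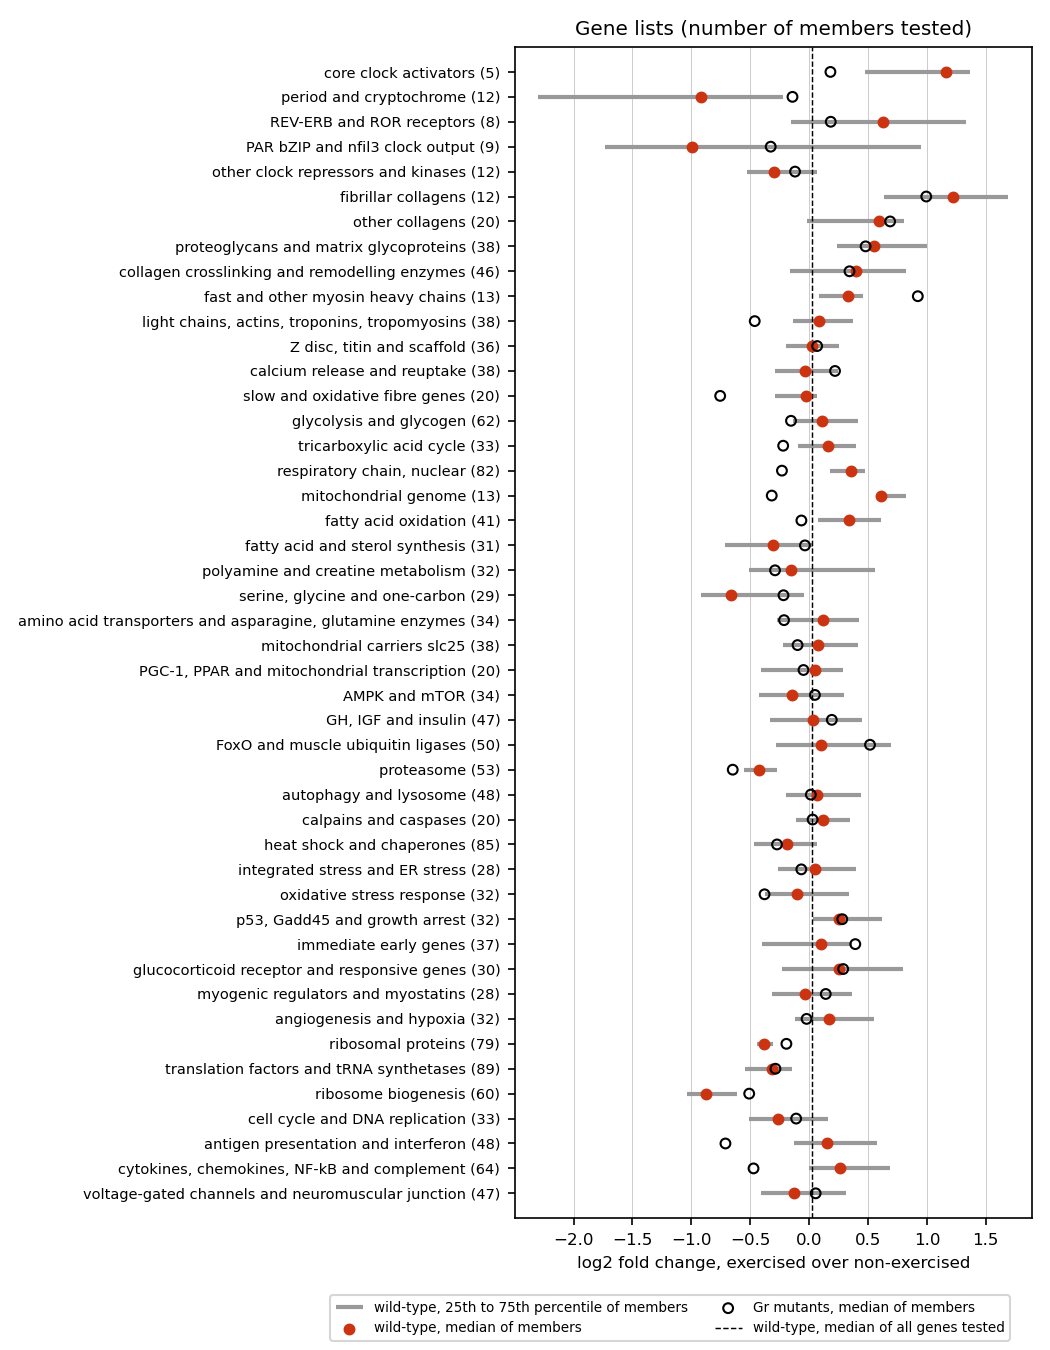
Median log2 fold change of exercised over non-exercised fish (horizontal axis) for the 46 gene lists, in wild-type fish (red, with a bar from the 25th to the 75th percentile of the members) and in Gr mutants (open circles), with the median of all genes tested in wild-type fish as a dashed line. In wild-type fish fibrillar collagens lie highest at 1.22 and ribosome biogenesis lies at -0.88. The myosin, actin, Z disc, calcium and slow fibre lists lie between -0.03 and 0.33 in wild-type fish and between -0.76 and 0.92 in Gr mutants. The mitochondrial lists lie on opposite sides of 0 in the 2 genotypes.

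The response of wild-type fish was then set beside that of Gr mutants, whose libraries are separate from the wild-type ones. The fish themselves were not kept apart by genotype. As the paper describes it, each group held both genotypes in a single tunnel, and fish were genotyped after the experiment. A difference between tunnels would thus be common to both genotypes, and its part in the values below was not tested. In the mutants 0 of 14584 genes passed the threshold (0.0%) in edgeR, with 1537 at an unadjusted p under 0.05 (10.5%). Of the 54 genes that changed in wild-type fish, 52 could be tested in the mutants. In 50 of the 52 the mutant fold change had the same sign, beside 56.9% of the 13858 genes tested in both, and in 25 it had an unadjusted p under 0.05, beside 10.5% of all genes. The 2 with the other sign were got1, at -0.12, and C1GALT1 (1 of 2), at -1.21.

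The mutant value was the smaller in size in 50 of the 52 genes. The 54 genes were chosen for large values in the wild-type libraries, so a smaller value in other libraries can follow from that choice alone. The difference between genotypes was tested as an interaction over all 12 libraries, and 0 of 16056 genes passed (0.0%) in edgeR, where the smallest adjusted p was 0.49. Without adjustment 1347 genes (8.39%) were under 0.05, and DESeq2 called 33 (0.206%). Rorcb had 3.90 (SE 0.66) in the mutants against 5.62, and nr1d1 -3.40 (SE 0.90) against -4.44. Per1a was at -3.10 in the mutants against -3.03, ampd3b at 2.64 against 2.44 and asb15b at 3.42 against 3.84. Arntl1a, at 0.71 against 3.11, and hlfa, at -0.50 against -1.87, were further apart, with unadjusted interaction p-values of 0.00086 and 0.002 that did not survive adjustment over all genes.

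By group, matrix genes had a median of 0.46 in the mutants against 0.53, and 96 of 114 were positive there. The 3 collagen I genes took 0.138% to 0.53% of counts in non-exercised mutants and 0.428% to 0.618% in exercised ones, so those groups overlapped. The highest non-exercised mutant library lay above all wild-type libraries in this share. Ribosome biogenesis genes had -0.51 against -0.88, with 58 of 60 negative in each genotype. The respiratory chain had the opposite sign. All 13 mitochondrial genes were negative in the mutants (median -0.32) and all 13 positive in wild-type fish, and 73 of 81 nuclear genes of the chain were negative in the mutants. Of the exercised mutant libraries, 2 were shallower than all others, with 7688323 and 8606580 counts. The mitochondrial genes took 3.72% to 4.95% of counts in non-exercised mutants and 1.97% to 4.59% in exercised ones, so those groups overlapped, and both lay below the wild-type shares. The interaction had an unadjusted p under 0.05 in 1 of 13 mitochondrial genes and 7 of 82 nuclear genes of the chain, all with a lower response in the mutants, beside 5.08% of all genes in that direction, and 0 of them passed. A difference between the genotypes in these genes was not detectable in single genes at this number of libraries.

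**Figure D5:**
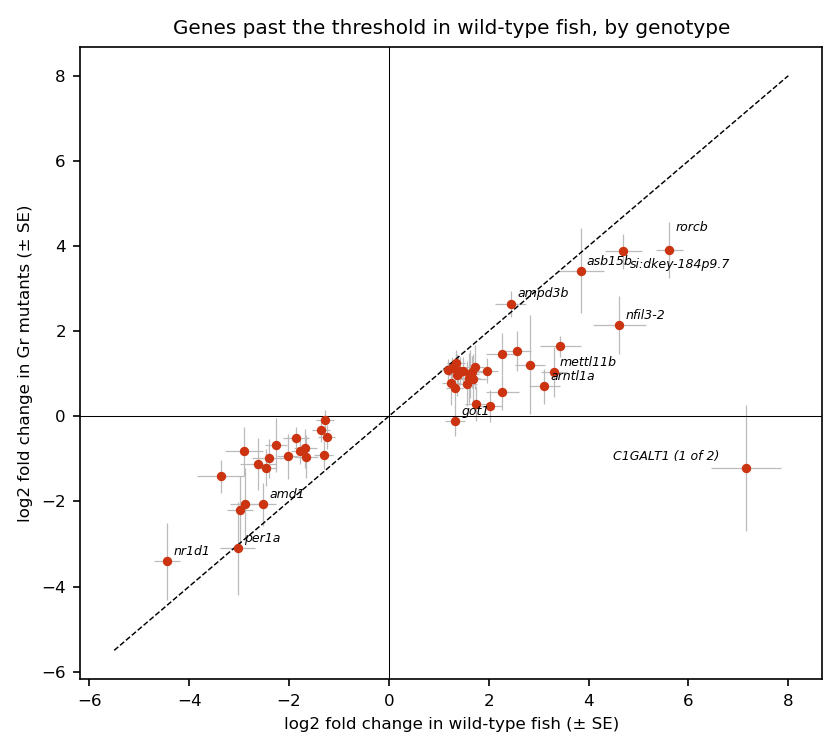
Log2 fold change with exercise in wild-type fish (horizontal axis) and in Gr mutants (vertical axis) for the 52 genes called in wild-type fish that could be tested in both, with bars of 1 SE and a dashed line of equal values. In 50 genes both values have the same sign, and got1 and C1GALT1 (1 of 2) are the exceptions.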

How the data were processed

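Poly(A) RNA of 12 libraries was sequenced, and the 6 wild-type libraries carry the main comparison. The deposited values are whole counts per gene. To make them, the authors mapped reads of 50 nt, sequenced from 1 end, to GRCz10 (Ensembl 80) with TopHat2 2.0.5, filtered with SAMtools 0.1.18 and counted reads per gene with HTSeq 0.5.3p9, in no normalized unit; the strand setting is not given in the sources used here. Columns of the authors' own comparisons (group means, fold changes and p-values) were not used, and 0 sample columns lacked a sample. Of the gene IDs, 3392 share a symbol with another, and 19 symbols had been turned into dates, so genes were joined by ID.

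CPM are counts per 1000000 of TMM-scaled library size. Wild-type groups were compared with edgeR 4.0.16 (quasi-likelihood F test, Benjamini-Hochberg adjustment over all genes tested) in R 4.3.3, and genotypes with an interaction term over 12 libraries. DESeq2 1.42.0, voom in limma 3.58.1, other filters and size factors, a replicate block and omission of single libraries served as alternatives. The procedure was also run on simulated counts with the same spread for every gene and no shift of single libraries. Such counts are simpler than these libraries, so the run does not measure how firm the calls are. Folds against a group at or under 3 counts per library are bounds against 3 counts. P-values set the difference between groups against the spread between these libraries. The paper used a single tunnel for each group, so the spread between tunnels does not enter them. The groups were called apart when no exercised library overlapped a non-exercised one. All genes past the threshold were named. Others came from up to 4 members per list, over 46 lists, with the lowest p and a mean of 50 counts or more. The growth and structure genes that the study discusses, and nr3c1, were a further source, and others were chosen after their values were seen. Not every list or study gene was named. Those left out include gas7a (log2 fold change 3.37, at few counts), col8a1b (1.94), fgf13a (1.5), tp53inp1 (1.565) and dbpb (-1.733). In wild-type fish their groups stood apart, and none passed (edgeR adjusted p of 0.0603 to 0.189). Igfbp1a (1.62) and myhb (1.385), also left out, had overlapping groups. The members and lists were chosen with earlier results of these data known, and 38 false matches of list patterns were removed. Figures were drawn with matplotlib 3.10.9 in Python 3.11.15.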

Additional observations from a re-analysis of the deposited data

How the results depend on the processing

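The number of genes past the threshold depended on the settings. Each of the 54 genes kept its sign in every alternative fit in which it was tested, which for 5 of them was 3 of the 6 omissions. Their groups do not overlap, so the sign could hardly change and does not measure how firm the calls are. Against 54 genes (33 higher, 21 lower), 142 passed with no filter on low counts (74 and 68), 395 with DESeq2 (211 and 184), 184 at an adjusted p under 0.1 (98 and 86) and 2028 at an unadjusted p under 0.05 (1068 and 960). RLE size factors gave 55, filterByExpr 56, voom 62, robust dispersion 66 and a fit of all 12 libraries 45, of which 27 were among the 54. Leaving out 1 library gave 7 to 32 genes, 3 to 11 of them higher and 4 to 24 lower, with fewer samples in each such fit. By library the count was 16, 9 and 24 without non-exercised replicate 1, 2 and 3, and 32, 11 and 7 without exercised replicate 1, 2 and 3. For the interaction, 0 genes passed in edgeR, 33 in DESeq2 and 1347 without adjustment.

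Replicate numbers recur between the groups, but same-numbered libraries did not deviate together (r across genes of -0.11, 0.06 and -0.08), and not every library correlated best with its own number. With the numbers as a replicate block, 4 genes passed, 3 higher (rorcb, si:dkey-184p9.7 and nfil3-2) and 1 lower (nr1d1).

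Genes that did not pass and whose sign turned with 1 library left out had these log2 fold change ranges over the 6 omissions: myo3a -0.31 to 2.73, cyp51 -2.65 to 0.50, msmo1 -1.80 to 0.24, hmgcra -3.69 to 0.24, mef2aa -0.64 to 0.0023, ppargc1a -1.27 to 0.91, col10a1b -2.70 to 0.28, prkab1b -0.20 to 0.054, mef2cb -0.091 to 0.30 and pax7b -0.35 to 0.25. The cause was not tested. With libraries of 11076993 counts or more, genes with 0 counts in a group, such as cyp4v7, allow bounds only, and the part of depth in the other calls was not tested.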

Other observations

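Genes of no list that came close to the threshold add members to the groups described above; they were chosen after their values were seen. Among genes of connective tissue, mxra8a, a membrane protein gene of matrix-producing cells, had 14.9, 13.2 and 6.96 CPM in non-exercised and 43.3, 31.9 and 41.1 CPM in exercised wild-type fish (log2 fold change 1.74, edgeR adjusted p = 0.0734). The collagen gene COL25A1 had a log2 fold change of 1.12, cd248b, the gene of endosialin, 1.24, the small proteoglycan gene ogn 1.38 and serpinf1 0.97, each with groups apart. Of ribosome assembly, rpf2 had -1.07 and heatr3 -1.06, and the exercised libraries lay below the non-exercised ones in both.

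Single genes of the ubiquitin system outside the list lay in both directions. Of 2 tandem genes that carry the symbol asb2a.1, the more abundant had 64.9, 20.4 and 25.1 CPM against 184, 212 and 372 CPM (log2 fold change 2.80, adjusted p = 0.0743), and the other had 1.25. Klhl24b, a kelch protein gene, had 7.31, 2.3 and 2.97 CPM against 20.6, 18.8 and 20.4 CPM (log2 fold change 2.25, adjusted p = 0.0734). Lower were herc2 at -1.48, PELI3 at -1.45, rc3h2 at -1.38 and lonrf1 at -0.87, each with groups apart and none past the threshold. The retinoid-metabolizing enzyme gene cyp27c1 had 32.9, 28.2 and 4.18 CPM against 0.946, 0.787 and 1.62 CPM (log2 fold change -4.25, adjusted p = 0.0753), with non-exercised replicate 3 far below the other non-exercised libraries.

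The cytokine, chemokine and complement list had a median of 0.26 on the log2 scale in wild-type fish, while in Gr mutants it was -0.47, and in 17 of its 64 genes (26.6%) the interaction had an unadjusted p under 0.05 with a lower response in the mutants, beside 5.08% of all genes. For antigen presentation and interferon genes the medians were 0.15 and -0.71, with 9 of 48 genes. With 1 wild-type library left out, the wild-type median of the cytokine list ranged from 0.12 to 0.42 and that of antigen presentation from -0.033 to 0.46, negative without non-exercised replicate 2 or exercised replicate 3. None of these genes passed after adjustment in edgeR, and the number of immune cells in each fillet was not measured.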
